A study of Mus musculus with 6 samples.

Results

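The clade B serpins Serpinb9b, Serpinb9, Serpinb6b, Serpinb6a, Serpinb1a, Serpinb8 and Serpinb2 were followed in mouse bone marrow-derived macrophages that had or had not met plastic particles. These 7 genes were taken by symbol from 40213 genes in the count files, which hold 28 clade B serpins in all. They were chosen by their scaled counts in MNP against control libraries, so their own values are given as a description without tests. Marrow cells of C57BL/6 mice were cultured with macrophage colony-stimulating factor (M-CSF, 25 ng/ml) and 10% serum for 4 days. The control group (n = 3) received no particles, and the MNP group (n = 3) received 50 µg of polystyrene micro- and nanoplastics for 24 h, in a volume that the labels do not state. The labels name no other treatment or genotype for either group. They also do not say whether the 3 replicates came from separate cultures or animals, so the errors and p-values measure the spread between these samples, which may be technical.

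Serpins are protease inhibitors that present a flexible reactive loop as bait. When a protease cuts the loop, the serpin springs into a new shape and traps the enzyme in a covalent complex. Clade B members lack a classical secretion signal and act mostly inside cells, where they are known for protecting granule-bearing and phagocytic cells from their own or neighbouring cells' proteases. In the mouse the human genes SERPINB1, SERPINB6 and SERPINB9 each correspond to a group of duplicated genes on chromosome 13, and most other clade B genes lie on chromosome 1. Macrophages are known to use Serpinb2, also called plasminogen activator inhibitor 2, as a strongly inducible inhibitor of urokinase.

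The reactive loop decides which proteases a serpin catches, so its coding sequence is shown for the members in which the hinge before it could be found. The stretches come from GENCODE M21 transcripts of the build GRCm38, which gave a transcript for 7 of 7 members and a hinge match for 6. Lower case marks the 12 hinge bases and capitals mark the 54 coding bases that follow and hold the reactive loop, 5′ to 3′.
Serpinb9b: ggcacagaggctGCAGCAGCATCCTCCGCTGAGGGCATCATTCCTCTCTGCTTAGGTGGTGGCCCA
Serpinb9: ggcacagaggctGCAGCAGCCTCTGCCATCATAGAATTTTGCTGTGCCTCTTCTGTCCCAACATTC
Serpinb6b: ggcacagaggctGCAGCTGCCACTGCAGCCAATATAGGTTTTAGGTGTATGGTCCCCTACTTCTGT
Serpinb6a: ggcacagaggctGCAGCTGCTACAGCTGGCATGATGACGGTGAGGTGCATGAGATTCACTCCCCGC
Serpinb1a: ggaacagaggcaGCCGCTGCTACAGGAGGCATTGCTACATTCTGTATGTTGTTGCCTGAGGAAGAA
Serpinb8: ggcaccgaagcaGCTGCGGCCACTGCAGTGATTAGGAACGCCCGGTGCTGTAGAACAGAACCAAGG
Serpinb9b and Serpinb9 shared 86.0% of their aligned coding bases (965 of 1122), in an alignment that allowed gaps. The stretches shown were compared position by position without gaps, so bases shifted by an insertion can count as different. By that count the pair differed at 35 of the 66 bases. Their hinges both begin at coding base 976 but their coding lengths are 1131 and 1122, so their lengths after the hinge differ. Serpinb6a and Serpinb6b shared 86.2% of coding bases and differed at 25 of 66 by the same ungapped count. Serpinb1a shared 90.4% with Serpinb1b, its relative outside the chosen members, and differed from it at 30 of 66 by that count. The coding length after the hinge differs within these pairs too. The counts may therefore include shifted bases and do not measure substitutions alone. Between the subfamilies, for example Serpinb9b and Serpinb6a, coding identity was 66.5% and 36 of 66 bases differed by that count.

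Levels are given as scaled CPM, which are counts corrected for library size and for TMM factors (trimmed mean of M-values), with mean ± SD of 3 libraries. Library totals ran from 20262859 to 23042146 counts, and 9455 to 11548 of the counts in each library fell on clade B serpins. In the 6 libraries 3 counts were worth 0.130 to 0.148 CPM. The cells carried macrophage markers, of which all 8 listed passed the expression filter. These summed to 18935 to 19643 CPM in control and 16837 to 17858 CPM in MNP libraries. At an adjusted p under 0.05 edgeR called 4 of them (Adgre1, Mertk, Fcgr1 and Lyz2) lower with MNP. Lyz2 was close to that threshold (1.12-fold lower, edgeR adjusted p = 0.0491). Of the 10 cytotoxic lymphocyte markers 3 (Gzma, Ncr1 and Cd3e) had no count, and the list summed to 0.975 to 1.22 CPM in control and 0.822 to 1.35 CPM in MNP libraries. The 7 mast cell and basophil markers summed to 8.72 to 12.1 CPM in control and 16.2 to 19.7 CPM in MNP libraries, nearly all of it Kit, and the 5 of megakaryocytes to 17.5 to 25.5 and 11.9 to 14.0 CPM. Their part in the serpin values was not tested. Of 12893 genes that passed the filter, edgeR called 2250 (17.5%) at an adjusted p under 0.05, 1174 (9.11%) higher and 1076 (8.35%) lower in MNP libraries. Scaling by library totals alone gave 757 higher and 1941 lower, and without MNP library 2 there were 1471 calls in all. Among the members 6 passed the filter and Serpinb2 did not. Of these 6, 3 were called higher and 2 lower, and these 5 had groups that did not overlap. Of all tested genes 34.6% had groups that did not overlap. The choice of members used this contrast, so the 17.5% and 34.6% are references and nothing is read from the comparison. Their median log2 fold change was 0.46 and that of all tested genes was -0.01.

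**Figure D1:**
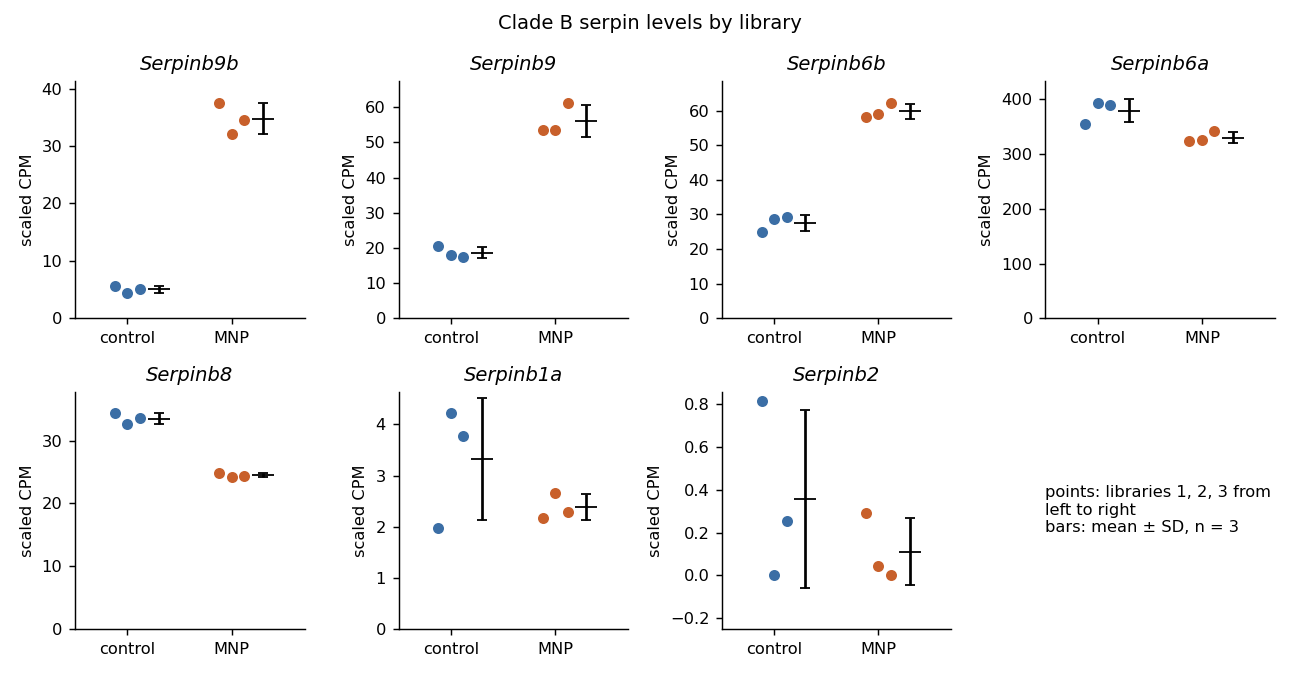
Scaled CPM of each member in the 3 control and 3 MNP libraries (points, libraries 1 to 3 from left to right), with mean ± SD beside them; each panel has its own linear axis. Serpinb9b, Serpinb9 and Serpinb6b are higher and Serpinb6a and Serpinb8 lower in every MNP library, while the groups overlap for Serpinb1a and Serpinb2.

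Serpinb9b and Serpinb9 were the members with the largest differences. Serpinb9b, a mouse inhibitor of granzyme M, stood at 5.61, 4.39 and 5.05 CPM in control libraries 1 to 3 and at 37.6, 32.2 and 34.6 CPM in MNP libraries 1 to 3. The lowest MNP library was therefore far above the highest control, and the group means were 5.02 ± 0.609 and 34.8 ± 2.71 CPM, a 6.93-fold difference (log2 2.79 ± 0.12 SE). Serpinb9, the inhibitor of granzyme B that shields cytotoxic lymphocytes and antigen-presenting cells from that enzyme, stood at 20.5, 18.0 and 17.4 CPM in control and at 53.5, 53.6 and 61.3 CPM in MNP libraries. The 3 MNP libraries again lay above all controls. Its means were 18.7 ± 1.63 and 56.1 ± 4.51 CPM, which is 3.01-fold (log2 1.59 ± 0.09). The granzymes themselves were nearly absent from both groups: Gzma and Gzmk had no count in the 6 libraries, Gzmb had 2 counts in all and Gzmm had 8.

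The reads of Serpinb9 and Serpinb9b are not fully separable, because the genes are copies of each other. Of all 31-base windows of the Serpinb9b transcript, 11.4% recurred exactly in another gene, 4.06% in Serpinb9 and 6.27% in Gm36099, a gene annotated over Serpinb9b that had 0 counts in all 6 libraries. At 50 bases the part shared with Serpinb9 was 0.406%. Of the windows of Serpinb9, 4.97% recurred elsewhere at 31 bases and 0.380% at 50. The read length is not given in the sources used here. The sum over the 8 genes of the Serpinb9 subfamily does not depend on how reads were divided among them. It stood at 26.2, 22.4 and 22.5 CPM in control and 91.1, 85.8 and 96.0 CPM in MNP libraries, a 3.84-fold difference (log2 1.94 ± 0.08). Within that sum the part from Serpinb9b was 19.6% to 22.4% in control and 36.0% to 41.2% in MNP libraries, and the ranges did not overlap.

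The Serpinb6 pair went in opposite directions. Serpinb6b, which inhibits granzyme A in the mouse, had 25.0, 28.6 and 29.3 CPM in control and 58.2, 59.1 and 62.4 CPM in MNP libraries. All 3 MNP libraries had about the same level, above every control, with means of 27.6 ± 2.34 and 59.9 ± 2.18 CPM (2.17-fold, log2 1.12 ± 0.08). Serpinb6a, a broadly expressed inhibitor of trypsin-like proteases and of cathepsin G, was by far the most abundant member, at 355, 394 and 390 CPM in control and 323, 325 and 342 CPM in MNP libraries. Its highest MNP library came close to its lowest control. The means were 380 ± 21.8 and 330 ± 10.4 CPM, 1.15-fold lower with MNP (log2 -0.20 ± 0.06).

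Summed over its 5 genes, the Serpinb6 subfamily stood at 407 ± 24.1 CPM in control and 390 ± 12.6 CPM in MNP libraries, and the groups overlapped (log2 -0.06 ± 0.06). The make-up of the sum differed, since Serpinb6b supplied 6.58% to 6.99% of it in control and 15.3% to 15.4% in MNP libraries. Of the 31-base windows of Serpinb6a 22.3% recurred in other genes, mostly in 1110046J04Rik (12.6%) and Serpinb6c (4.27%). Of those of Serpinb6b 7.21% recurred, 1.34% in Serpinb6a. The overlapping gene 1110046J04Rik had 1.43 ± 0.541 CPM in control and 1.33 ± 0.264 CPM in MNP libraries, and Serpinb6c had 7 counts over all 6 libraries.

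**Figure D2:**
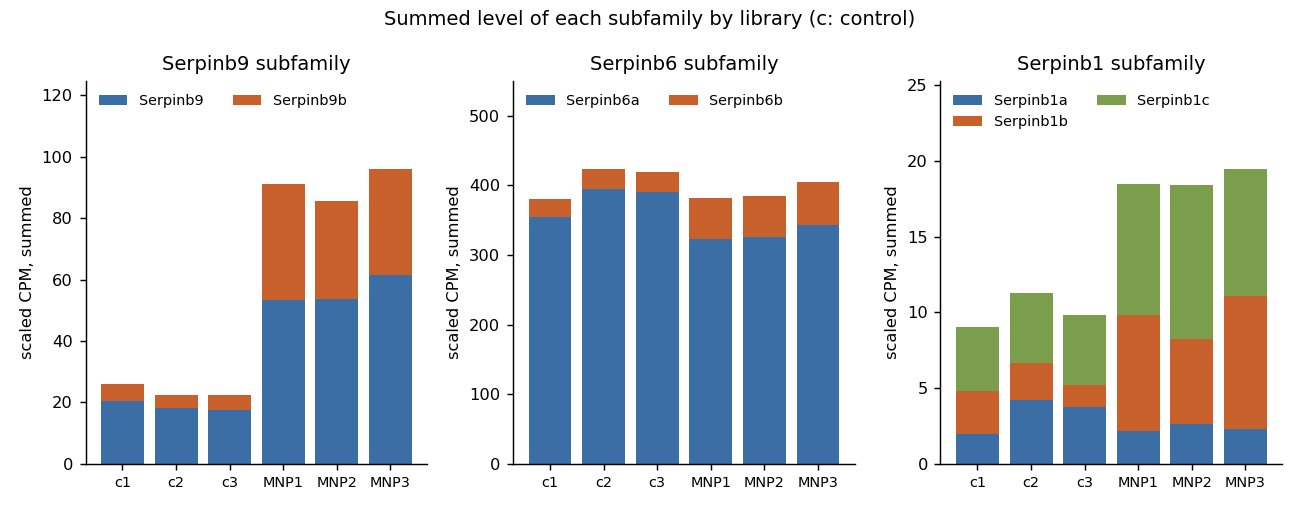
Summed scaled CPM (linear axes from 0) of the Serpinb9, Serpinb6 and Serpinb1 subfamilies in each library, control 1 to 3 (c1 to c3) and MNP 1 to 3, stacked by gene. Drawn are Serpinb9 and Serpinb9b, Serpinb6a and Serpinb6b, and Serpinb1a, Serpinb1b and Serpinb1c. The other Serpinb9 and Serpinb6 genes, with at most 7 counts each over all libraries, are left out. The Serpinb9 and Serpinb1 columns are taller in all MNP libraries, whereas the Serpinb6 columns overlap in height and differ in the part taken by Serpinb6b.

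Serpinb1a, the mouse counterpart of the inhibitor of neutrophil elastase, proteinase 3 and cathepsin G, was a weakly expressed member whose groups overlapped. It stood at 1.97, 4.22 and 3.77 CPM in control and 2.17, 2.66 and 2.29 CPM in MNP libraries. Control library 1 was below all 3 MNP libraries and the other 2 controls were above them (log2 -0.48 ± 0.29). Across the controls the SD of Serpinb1a was 36.0% of its mean, against 2.62% for Serpinb8 and 5.75% for Serpinb6a. The 12 neutrophil markers summed to 234 to 326 CPM in control and 212 to 246 CPM in MNP libraries, and control library 1 had the lowest sum of the controls. Of the 11 that were tested, 5 (Mpo, Ltf, Ngp, S100a9 and Retnlg) were called lower and 1 (Mmp8) was called higher. Among all tested genes 17.5% were called. Retnlg stood at 0.193 CPM in MNP library 1 and passed the filter through the controls, so its call is read as no support. Ly6g had 3 counts in all. The part of the neutrophil markers in the Serpinb1a values was not tested. In bulk RNA, fewer cells of a type and less RNA per cell cannot be told apart.

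Its 2 close copies were called higher with MNP, unlike Serpinb1a. Serpinb1b went from 2.83, 2.43 and 1.40 CPM to 7.68, 5.59 and 8.79 CPM, 3.32-fold (log2 1.73 ± 0.26, edgeR adjusted p = 0.000389). Serpinb1c went from 4.27, 4.61 and 4.67 CPM to 8.60, 10.1 and 8.36 CPM, 2.00-fold (log2 1.00 ± 0.15, edgeR adjusted p = 0.000439). In both cases each MNP library exceeded each control. The 3 genes share sequence, with 12% of the 31-base windows of Serpinb1a and 12.1% of those of Serpinb1c recurring elsewhere. At 50 bases these parts were 3.42% and 6.63%, and at 100 bases 0% for each. The read length is not given, so how far their separate levels are uncertain is unknown. The subfamily sum was 10.1 ± 1.12 CPM in control and 18.8 ± 0.590 CPM in MNP libraries (1.87-fold, log2 0.90 ± 0.11), and the part from Serpinb1a was 21.7% to 38.4% in control and 11.8% to 14.5% in MNP libraries.

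Serpinb8, whose human counterpart inhibits furin, was the steadiest member. It stood at 34.4, 32.6 and 33.5 CPM in control and 24.8, 24.3 and 24.3 CPM in MNP libraries, so that every MNP library was below every control. Means were 33.5 ± 0.879 and 24.5 ± 0.319 CPM, 1.37-fold lower with MNP (log2 -0.45 ± 0.08). Of its 31-base windows 0.769% recurred in other genes. Furin, its target, was at 46.8 ± 2.77 and 49.9 ± 3.59 CPM and did not pass the test (log2 0.09 ± 0.08, edgeR adjusted p = 0.468).

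Serpinb2 was close to undetected. Its counts were 17, 0 and 6 in control and 6, 1 and 0 in MNP libraries, which made 30 counts in all, too few for the filter. Most of them came from control library 1, and the groups overlapped. Without the filter its log2 fold change was -1.58 ± 1.16, an error nearly as large as the value, so no difference was detectable at this depth. None of the 31-base windows of the transcript used for it recurred in another gene, but other annotated Serpinb2 transcripts share sequence with Serpinb10.

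**Figure D3:**
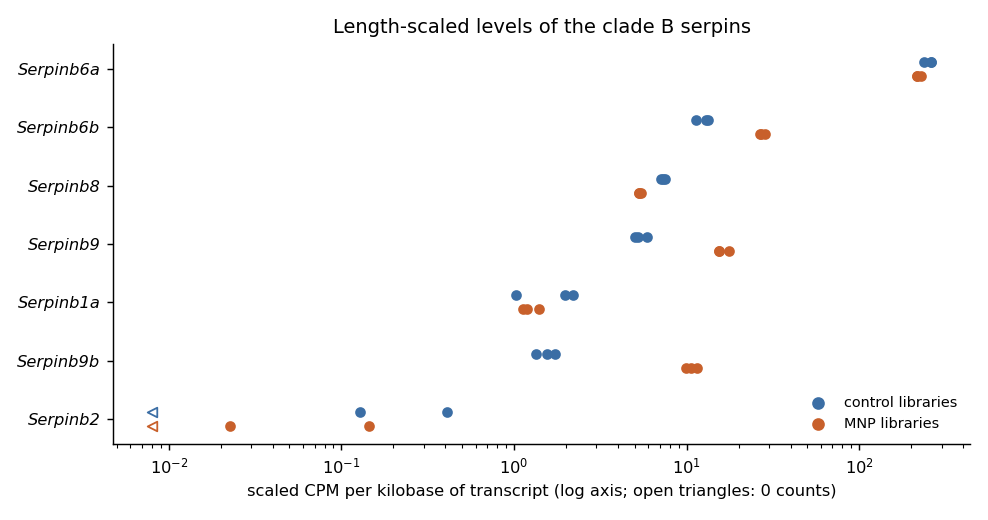
Scaled CPM per kilobase of transcript (log axis) for the 7 members, ordered by the control mean, with control libraries in blue and MNP libraries in orange; open triangles stand for libraries with 0 counts. Serpinb6a lies far above the others in both groups, and Serpinb9b moves from the level of Serpinb1a to above that of Serpinb8.

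To compare genes with each other, CPM were divided by the length of 1 GENCODE transcript per gene. In control libraries the order of these length-scaled levels was Serpinb6a (253 CPM per kilobase), Serpinb6b (12.6), Serpinb8 (7.31), Serpinb9 (5.38), Serpinb1a (1.73), Serpinb9b (1.54) and Serpinb2 (0.179). Serpinb1a (1.02 to 2.20 in single libraries) and Serpinb9b (1.35 to 1.72) did not differ beyond their spread, and the libraries of other neighbours in this order did not overlap. In MNP libraries the order was Serpinb6a (220 CPM per kilobase), Serpinb6b (27.3), Serpinb9 (16.2), Serpinb9b (10.7), Serpinb8 (5.34), Serpinb1a (1.24) and Serpinb2 (0.0560), with no overlap between neighbours. Serpinb9 and Serpinb9b thus stood below Serpinb8 in control libraries and above it in MNP libraries. All 28 clade B serpins together made 479 ± 22.2 CPM in control and 529 ± 17.7 CPM in MNP libraries. Serpinb6a took 78.3% to 79.9% of that sum in control and 62.1% to 63.0% in MNP libraries, Serpinb9 took 3.56% to 4.53% and 10.3% to 11.2%, and Serpinb9b took 0.890% to 1.24% and 6.22% to 7.21%.

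Of the 21 clade B serpins outside the chosen members, 7 had no count, 9 had 1 to 5 counts over the 6 libraries, 1 (Serpinb6c) had 7 counts and 4 were tested. Besides Serpinb1b and Serpinb1c these were Serpinb12, an inhibitor of trypsin-like proteases best known from epithelia, and Serpinb10, or bomapin, of blood-forming cells. Serpinb12 went from 2.20, 1.87 and 2.42 CPM to 4.40, 3.47 and 4.30 CPM (1.87-fold, log2 0.90 ± 0.23, edgeR adjusted p = 0.0167). It lost its call without control library 2 (adjusted p = 0.0623) and without MNP library 3 (adjusted p = 0.0638). The 6 epithelial markers summed to 0.467 to 1.83 CPM in control and 0.574 to 1.26 CPM in MNP libraries, and their part in the Serpinb12 result was not tested.

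Serpinb10 had 15, 43 and 35 counts in control and 2, 4 and 10 counts in MNP libraries, so that it passed the filter through the controls alone. Its level went from 1.36 ± 0.586 to 0.252 ± 0.200 CPM (log2 -2.41 ± 0.59), and MNP library 1 was under the value of 3 counts. A gene let in by the group where it is high has to differ, so its call is read as no support, and the call was lost without control library 2, MNP library 1 or MNP library 2. Of the 31-base windows of Serpinb10, 4.86% recurred in Serpinb2, the clade B serpin before it on the chromosome.

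**Figure D4:**
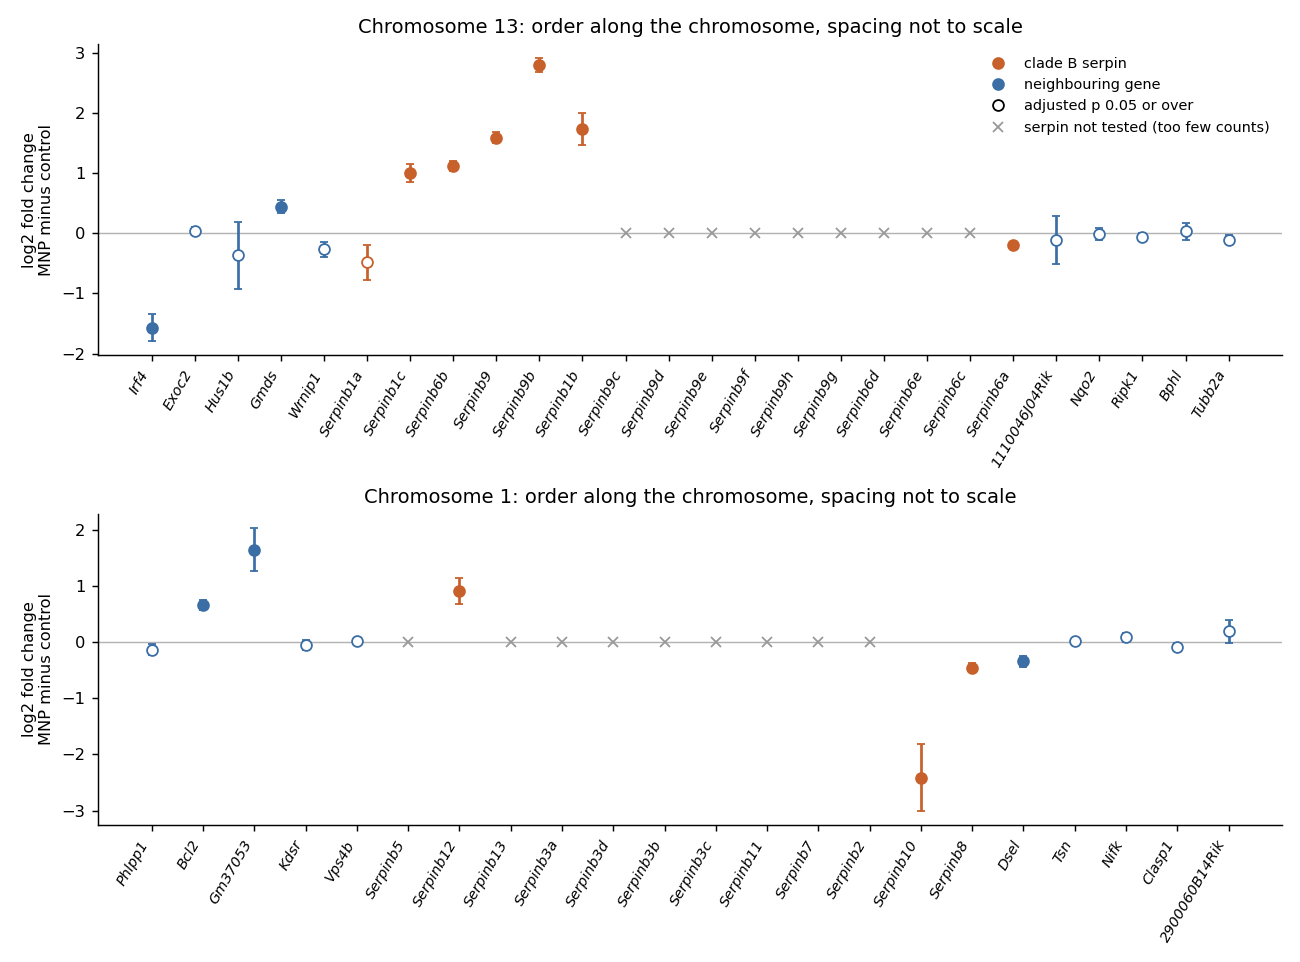
Log2 fold change, MNP minus control, with SE (bars) for clade B serpins (orange) and the nearest tested neighbours (blue) in their order along chromosomes 13 and 1, with spacing not to scale; open circles are genes with an adjusted p of 0.05 or over and crosses are serpins with too few counts to test. On chromosome 13 the 5 clade B serpins from Serpinb1c to Serpinb1b all lie at 1.00 or above, and Serpinb1a and Serpinb6a on either side lie below 0. All of these but Serpinb1b and Serpinb1c are members chosen with this contrast. Untested genes other than clade B serpins are not drawn.

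Of the clade B serpins called higher, 5 followed one another among those of chromosome 13, and Serpinb12 lay on chromosome 1. Serpinb6b, Serpinb9 and Serpinb9b are members chosen with this contrast, so the run is a description and nothing is read from it. The order was read from the RefSeq gene table for clade B serpins and tested neighbours only, so other genes may lie between. In it Serpinb1c, Serpinb6b, Serpinb9, Serpinb9b and Serpinb1b came in a row, with log2 fold changes of 1.00, 1.12, 1.59, 2.79 and 1.73. Serpinb1a came just before them, 9 serpins with 0 to 7 counts came after them, and Serpinb6a closed the cluster. On chromosome 1 Serpinb2, Serpinb10 and Serpinb8 likewise followed one another in this order, and Serpinb12 lay near the other end of that cluster. The 20 nearest tested genes outside the clusters had a median log2 fold change of -0.03. Of them 5 (25.0%) were called, against 17.5% of all tested genes. The count was 2 without MNP library 2 and 3 without control library 2 or MNP library 3.

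Of these neighbours 3 were higher and 2 lower with MNP. Before Serpinb1a, Irf4, a transcription factor of immune cells, fell from 8.37 ± 1.39 to 2.81 ± 0.807 CPM (log2 -1.57 ± 0.22, edgeR adjusted p = 0.000246), while Gmds, an enzyme of GDP-fucose synthesis, rose 1.36-fold (log2 0.44 ± 0.11, adjusted p = 0.0141). Wrnip1, the nearest tested gene before Serpinb1a, had a log2 fold change of -0.27 ± 0.12 and did not pass (adjusted p = 0.164). On chromosome 1, Bcl2, an inhibitor of cell death, rose 1.58-fold from 27.3 ± 2.69 to 43.2 ± 0.611 CPM (log2 0.66 ± 0.09, adjusted p = 0.000117). Gm37053 rose 3.13-fold from 0.845 ± 0.414 to 2.64 ± 0.462 CPM (adjusted p = 0.00964). Dsel, the first tested gene after Serpinb8, fell by 0.34 ± 0.10 on the log2 scale (adjusted p = 0.0384). Dsel lost its call with any library left out, with no filter and with DESeq2, Gmds without control library 2, MNP library 2 or MNP library 3, and Gm37053 without MNP library 2. At the far end of chromosome 13's cluster, Nqo2 (log2 -0.01 ± 0.10, adjusted p = 0.943) and Ripk1 (log2 -0.06 ± 0.06, adjusted p = 0.569), which overlap Serpinb6a in the RefSeq table, did not pass. The other neighbours lay between -0.36 for Hus1b and 0.19 for 2900060B14Rik, and none of them passed.

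The start regions of the 2 genes with the largest differences are shown because Serpinb9b and Serpinb9 are consecutive clade B serpins and were both higher. RefSeq promoter entries of the build GRCm38.p6 were found for 6 of 7 members. The windows are the 250 bases before the start on the + strand, chr13:33027164-33027413 for Serpinb9b and chr13:33004291-33004540 for Serpinb9, and capitals mark a match to the interferon-stimulated element searched for.
Serpinb9b: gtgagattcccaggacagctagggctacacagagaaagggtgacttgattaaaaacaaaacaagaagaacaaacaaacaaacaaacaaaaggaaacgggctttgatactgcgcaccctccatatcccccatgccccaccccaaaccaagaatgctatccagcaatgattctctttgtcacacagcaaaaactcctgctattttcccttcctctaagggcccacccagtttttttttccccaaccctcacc
Serpinb9: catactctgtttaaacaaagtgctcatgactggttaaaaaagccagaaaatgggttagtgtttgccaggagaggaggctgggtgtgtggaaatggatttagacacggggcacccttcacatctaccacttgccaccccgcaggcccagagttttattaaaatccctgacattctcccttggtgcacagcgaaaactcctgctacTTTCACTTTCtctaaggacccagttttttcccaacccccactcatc
Over windows of 300 bases, which add 50 bases after the start, 184 of 278 aligned bases were identical (66.2%). On both strands 4 motifs were searched, the antioxidant response core TGACNNNGC, the AP-1 motif TGANTCA, the interferon-stimulated response element (GAAA, any 2 bases, GAAA) and the NF-kB motif (GGGA, any 4 bases, CC). Of 32851 RefSeq windows of that length 12.4%, 7.81%, 3.44% and 20.7% held them, in that order. No match lay in the windows of Serpinb9b or Serpinb6b, and Serpinb9 held the interferon-stimulated element at -46 on the opposite strand. Of the 8 windows of the 6 members, 1 window of Serpinb6a held the antioxidant core, Serpinb8 held the AP-1 motif at -23 and 14, Serpinb2 held it in both of its overlapping windows, Serpinb6a held the interferon-stimulated element at -84, and 1 window each of Serpinb8 and Serpinb6a held the NF-kB motif. A match describes letters only, and none says whether a factor binds.

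Genes whose levels followed the members most closely over the 6 libraries were found by Pearson's r of log2 CPM. With Serpinb9b these were Psmd11, a proteasome subunit (r = 0.9996), Gsta3, a glutathione transferase (r = 0.9994), and Hvcn1, a proton channel of phagocytes (r = 0.9986). Gsta3 stood at 1.31 ± 0.248 CPM in control and 26.3 ± 1.20 CPM in MNP libraries, and Psmd11 at 79.6 ± 1.22 and 108 ± 1.19 CPM, so near-identical profiles went with very different sizes of change. With Serpinb9 they were Abcc1, an exporter of glutathione conjugates (r = 0.9997), Cd36, a scavenger receptor (r = 0.9991), and Arrdc4 (r = 0.9987). With Serpinb6b they were Gbe1, the glycogen branching enzyme (r = 0.9986), Edem1, of the degradation of misfolded glycoproteins (r = 0.9980), and Me1, malic enzyme (r = 0.9978). These values describe 6 libraries in 2 groups and rest mainly on the difference between the groups. For Serpinb9b alone 168 tested genes had r over 0.98, for Serpinb9 172 and for Serpinb6b 180.

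Among 23 listed proteases that clade B serpins are known to inhibit, or their close relatives, 9 were tested and 2 were called, both lower. That is 22.2% of those tested, near the 17.5% of all tested genes, and the median log2 fold change was -0.08. Casp4, the inflammatory caspase that senses cytosolic lipopolysaccharide, stood at 28.3 ± 4.54 CPM in control and, 2.53-fold lower, at 11.2 ± 0.529 CPM in MNP libraries (log2 -1.34 ± 0.12, edgeR adjusted p = 4.73e-06). Plau, or urokinase, the target of Serpinb2, was 1.38-fold lower, at 575, 686 and 645 CPM in control and 496, 468 and 421 CPM in MNP libraries (log2 -0.46 ± 0.08, edgeR adjusted p = 0.000819). Casp8 stood at 81.3 ± 1.22 and 77.1 ± 5.13 CPM and did not pass (adjusted p = 0.471). The targets of Serpinb1a, which were picked out after their values were seen, were low in both groups and did not pass: Elane at 2.01 ± 0.603 and 2.39 ± 0.484 CPM, Prtn3 at 1.37 ± 0.608 and 0.894 ± 0.190 CPM, and Ctsg at 0.694 ± 0.0982 and 0.852 ± 0.426 CPM.

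Around urokinase, 9 of 12 listed genes were tested, and 1 rose and 2 fell. That is 33.3% called, against 17.5% of all tested genes, and the median log2 fold change was -0.07. Lrp1, the receptor that clears urokinase and inhibitor complexes, rose from 1725 ± 131 to 2147 ± 137 CPM (log2 0.32 ± 0.07, edgeR adjusted p = 0.00570). Besides Plau, Thbd, or thrombomodulin, fell from 17.1 ± 2.26 to 13.2 ± 0.951 CPM (log2 -0.37 ± 0.12, adjusted p = 0.0478). The Thbd call was lost in 8 of 14 alternatives, among them no filter, DESeq2, limma-voom and the omission of any library other than control library 2. Anxa2 and S100a10, which together form a plasminogen receptor, had log2 fold changes of -0.07 ± 0.07 and 0.14 ± 0.06 and did not pass (adjusted p = 0.483 and 0.117).

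**Figure D5:**
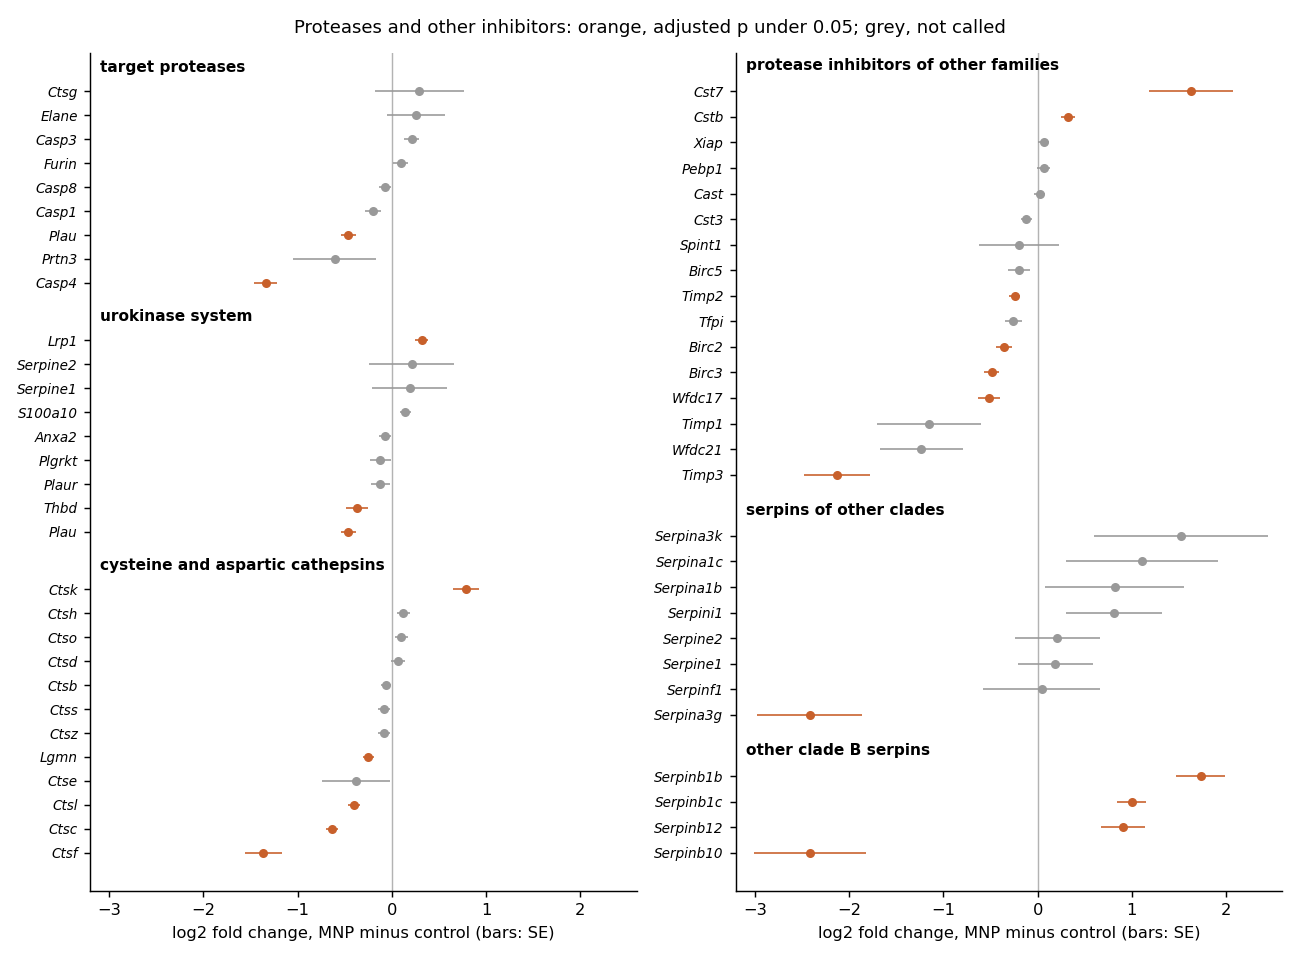
Log2 fold change, MNP minus control, with SE (bars) for every tested gene of the lists of target proteases, urokinase system, cathepsins, other protease inhibitors, serpins of other clades and other clade B serpins; orange points passed an adjusted p under 0.05 and grey points did not. Called genes lie on both sides of 0 in the cathepsin and inhibitor lists, while Casp4 and Plau are the called target proteases and both lie below 0.

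Protease inhibitors of other families held more lower than higher genes. Of 35 listed, 16 were tested, 2 were called higher and 5 lower (43.8%, median log2 fold change -0.22). Of all tested genes 17.5% were called, 9.11% higher and 8.35% lower. The list had 4 calls in all without MNP library 2 or MNP library 3. Among the genes named here, Timp2 and Birc2 lost their calls without either of these libraries, Cstb without MNP library 3, and Cst7 without either, without control library 2 or without MNP library 1. Timp3, an inhibitor of metalloproteinases, fell from 3.40 ± 1.17 to 0.771 ± 0.138 CPM (log2 -2.13 ± 0.35, edgeR adjusted p = 0.000784), and Timp2 fell from 213 ± 2.38 to 180 ± 8.58 CPM (log2 -0.24 ± 0.06, adjusted p = 0.00760). Birc3, a ubiquitin ligase of the apoptosis inhibitor family, fell by 0.49 ± 0.08 and Wfdc17 by 0.52 ± 0.12 on the log2 scale (adjusted p = 0.000879 and 0.00904). Birc2, chosen after its value was seen, was the fifth (log2 -0.36 ± 0.08, adjusted p = 0.00990). The genes called higher were cystatins, inhibitors of cysteine cathepsins. Cstb rose from 333 ± 32.8 to 416 ± 25.8 CPM (log2 0.32 ± 0.07, adjusted p = 0.00838), and Cst7, also chosen after its value was seen, from 0.616 ± 0.365 to 1.93 ± 0.203 CPM (log2 1.63 ± 0.44). Control library 2 held 7 counts of Cst7, which passed the filter through the MNP libraries, and its call is read as no support. Cst3 (786 ± 29.2 and 723 ± 32.5 CPM, adjusted p = 0.177) and Xiap (239 ± 8.80 and 251 ± 9.68 CPM, adjusted p = 0.476) did not pass.

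Of 13 lysosomal cysteine and aspartic cathepsins and legumain, 12 were tested, 1 rose and 4 fell. That is 41.7% called, against 17.5% of all tested genes, and the median log2 fold change was -0.08. Ctsk, a collagen-degrading cathepsin, was 1.72-fold higher, with 29.3 ± 7.71 CPM in control and 50.4 ± 2.39 CPM in MNP libraries (log2 0.78 ± 0.14, edgeR adjusted p = 0.00146). Ctsc, which activates the granule serine proteases that several clade B serpins inhibit, dropped 1.56-fold, with 279 ± 19.2 CPM in control and 179 ± 10.0 CPM in MNP libraries (log2 -0.64 ± 0.07, adjusted p = 1.35e-05). Ctsf fell by 1.37 ± 0.19, Ctsl by 0.41 ± 0.06 and Lgmn by 0.25 ± 0.06 on the log2 scale (adjusted p = 0.000250, 0.000515 and 0.0123), and Lgmn lost its call without MNP library 2. The abundant Ctsb and Ctsd did not pass, at 7530 ± 181 and 7205 ± 211 CPM and at 6894 ± 641 and 7217 ± 380 CPM (adjusted p = 0.471 and 0.577).

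Serpins of other clades were mostly silent in these cells. Of 37 genes 8 were tested, and 1, Serpina3g, an intracellular inhibitor of cathepsins, was called. That is 12.5%, against 17.5% of all tested genes, and the median log2 fold change of the 8 was 0.51. Serpina3g stood at 0.863, 1.26 and 0.721 CPM in control and 0.242, 0.180 and 0.0956 CPM in MNP libraries (log2 -2.42 ± 0.56). It passed the filter through the controls alone, so its call is a description. No gene of the list was called by edgeR without control library 2, MNP library 2 or MNP library 3, with 1, 1 and 4 genes at an unadjusted p under 0.05. Serpina1b, a plasma-type antitrypsin gene, was at 5.32 CPM in MNP library 1 and at 0.382 to 1.96 CPM in the other 5 libraries, and did not pass (adjusted p = 0.502). MNP library 1 was also the highest for Serpina1c (4.59 CPM, 0.143 to 1.17 elsewhere) and Serpina3k (3.82 CPM, 0.0956 to 0.609 elsewhere), both named after their values were seen. Without MNP library 1 the median of the 9 genes then tested was -0.99. With any other library left out the median lay between 0.40 and 0.70. The positive median was thus not kept without MNP library 1, but the set of tested genes also changed, and the 2 effects were not separated. Serpine2, at 1.33 ± 0.891 and 1.55 ± 0.0573 CPM, did not pass either (adjusted p = 0.794).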

How the data were processed

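RNA was sequenced from 3 control and 3 MNP samples of mouse macrophages, from total RNA with the CORALL RNA-seq V2 kit, per the labels. The authors deposited 1 file of whole-number counts per gene symbol for each sample. The build GRCm39 and the tools STAR, Salmon, fastp and GATK are named, with no role, per the submitters' processing notes. Not given in the sources used here were annotation, strand setting, read length, use of molecular identifiers and rounding. Overlapping and antisense genes therefore cannot be told apart, and the split of shared reads among close copies is unknown.

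Groups came from sample titles. Counts were fitted with edgeR 4.0.16 in R 4.3.3 (TMM factors, default filter with a minimum count of 10, quasi-likelihood F test of MNP against control, Benjamini-Hochberg adjustment over all 12893 tested genes, calls at an adjusted p under 0.05). Each SE is |log2 fold change| divided by the root of F. CPM are scaled by TMM factors. Within groups, replicate pairs differed by a chi-square per degree of freedom of 6.65 to 17.6, so none was a mere re-sequencing of another library. These values cannot tell separate cultures from separate preparations of the same culture. Subfamily counts were added within each library and the whole table was fitted again. Named genes are the 7 members and the tested clade B serpins. From each list up to 5 called genes of smallest p and up to 2 uncalled genes of highest level were added. The nearest tested genes beside the clusters and the 3 genes most alike in profile to each member with a 2-fold difference or more were also named. Exceptions are identified in the text. Not every gene taken by the rule is reported. Members and lists were chosen with earlier results of these data known. Sequences came from GENCODE M21 and RefSeq tables of GRCm38 and were used with Biopython 1.88 in Python 3.11.15. Gene order came from the RefSeq table, and no coordinates were converted between builds. Alternatives were other scalings, other filters, DESeq2 1.42.0, limma-voom (limma 3.58.1), a block for the replicate number and omission of each library. The steps were tested on simulated counts.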

Additional observations from a re-analysis of the deposited data

How the results depend on the processing

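No fold change of the 6 tested members or the 3 subfamily sums turned its direction under any alternative run. Over them the log2 fold change ran from 2.71 to 2.88 for Serpinb9b, 1.50 to 1.67 for Serpinb9, 1.03 to 1.17 for Serpinb6b, -0.54 to -0.42 for Serpinb8 and -0.74 to -0.27 for Serpinb1a. For Serpinb6a it ran from -0.29 with library totals alone to -0.17 with no filter, and from -0.24 to -0.17 with 1 library left out. Serpinb6a lost its call with no filter and with any library but control library 1 left out. In those fits the count of called members was 4 in place of 5, and the cause was not tested. With 1 library left out, calls ranged from 1471 (without MNP library 2) to 2245 genes over all, 2 to 4 among other clade B serpins, 0 to 1 among serpins of other clades, 4 to 8 among inhibitors of other families and 2 to 4 among neighbours. These fits have fewer samples. Among serpins of other clades edgeR called 4 with no filter, DESeq2 called 2, and the stricter filter left 1 gene to test and 0 calls, with 0 at an unadjusted p under 0.05. Where a left-out library gave 0 calls there, edgeR had 1, 1 and 4 genes at an unadjusted p under 0.05 (without control library 2, MNP library 2 and MNP library 3).

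Same-numbered control and MNP libraries deviated from their group means with correlations of 0.0867, 0.0282 and -0.0218, so the replicate numbers were not taken to pair samples. With the replicate block 2686 genes were called, 1432 higher and 1254 lower. The largest correlation of all pairs was that of control library 1 with MNP library 1. Control library 3 correlated best with MNP library 2 (0.0840). Control library 2 had nearly equal values with MNP library 3 (0.0288) and MNP library 2 (0.0282). Counts near the value of 3 counts limit Serpinb2 and Serpinb10, and shared sequence limits the Serpinb1, Serpinb6 and Serpinb9 genes.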
